A study of Homo sapiens with 6 samples.

Results

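Polycomb proteins work in 2 kinds of chromatin complex, and 10 genes that encode their core parts were followed here in the SEM leukaemia line. Members were taken by symbol from a fixed list: EZH1, EZH2, EED, SUZ12 and JARID2 of Polycomb repressive complex 2 (PRC2), and BMI1, RING1, RNF2, CBX2 and CBX8 of Polycomb repressive complex 1 (PRC1). All 10 were found among the 62703 gene IDs counted, each under 1 ID, and all 10 passed the filter on low counts along with 16929 genes in all. The rule names them by symbol and sets no threshold on a measured value.

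SEM is an established human line of B-cell precursor acute lymphoblastic leukaemia with a KMT2A::AFF1 fusion. Every culture went through a reverse lipid transfection and a forward one 24 h later. In the knock-down group (KD, 3 libraries) the cells received 2 Dicer-substrate siRNAs that target the back-splice junction of the fusion circular RNA AK_8_2, and in the negative control group (NC, 3 libraries) a commercial duplex with no target. The series calls the 3 replicates independent, and p-values measure the spread between these libraries. Total RNA was sequenced after depletion of globin transcripts, so a gene's count pools all of its transcripts. Gene counts do not show how far AK_8_2 was silenced, and in bulk RNA fewer cells of a kind and less RNA per cell cannot be told apart.

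PRC2 places methyl groups on histone H3 at the lysine that marks silenced developmental genes. EZH2 or its paralogue EZH1 is the catalytic subunit, while SUZ12 and EED are needed for activity, and EED binds the finished mark. PRC1 attaches ubiquitin to histone H2A through RING1 or RNF2, which pair with a PCGF protein such as BMI1. CBX proteins read the PRC2 mark through a chromodomain. In B-cell development EZH2 is known to be abundant in dividing precursors, and KMT2A belongs to the Trithorax group, which acts opposite to Polycomb.

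EZH2 and EZH1, the alternative catalytic subunits, differed most per kb of exon among the 3 paralogue pairs compared below, so the windows around their gene starts are shown. The sequences are from RefSeq (GRCh38.p14, 250 bases before to 50 after the start), 5′ to 3′ on the strand of the gene. Capitals mark the letters of 1 of 4 motifs of E2F type (TTTCGCGC, TTTGGCGC, TTTCCCGC and TTTGCCGC, searched on both strands); E2F factors switch on genes of DNA replication.
EZH2, chr7:148884242-148884541, minus strand: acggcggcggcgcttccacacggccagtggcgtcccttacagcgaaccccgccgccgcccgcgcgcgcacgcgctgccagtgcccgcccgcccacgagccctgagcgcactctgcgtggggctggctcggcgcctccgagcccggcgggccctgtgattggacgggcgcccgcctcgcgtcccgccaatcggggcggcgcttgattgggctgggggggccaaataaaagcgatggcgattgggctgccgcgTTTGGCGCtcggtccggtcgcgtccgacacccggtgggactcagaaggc
EZH1, chr17:42744991-42745290, minus strand: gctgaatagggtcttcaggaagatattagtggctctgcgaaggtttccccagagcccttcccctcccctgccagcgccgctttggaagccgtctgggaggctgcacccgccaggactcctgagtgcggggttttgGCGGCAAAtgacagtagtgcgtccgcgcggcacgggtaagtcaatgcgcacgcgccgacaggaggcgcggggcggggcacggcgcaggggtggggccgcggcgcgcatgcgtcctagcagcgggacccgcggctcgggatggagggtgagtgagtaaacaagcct
The EZH2 window holds TTTGGCGC from base 252, and the EZH1 window holds TTTGCCGC on the opposite strand from base 136. Windows were found for 8 of the 10 genes (11 windows, counting alternative starts), and SUZ12 was the only other gene with a match, TTTCCCGC. The second EZH2 window has no match. Of 35116 RefSeq windows of this length, 3.31% hold at least 1 of the 4 motifs. A match describes the letters alone and is no evidence of binding. The EZH2 window above has 46 CG dinucleotides and the EZH1 window 30, against a median of 14 over all windows, and EED, at 16, lay closest to that median.

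The 2 replicate 1 libraries stood apart from the other 4 and touch the values below. Gene counts totalled 14750579 and 16531673 in replicate 1 of NC and KD and 21186216 to 26694160 in the others. Reads outside annotated genes made up 48.6% to 50.03% of the records of the replicate 1 libraries and 11.3% to 17.3% elsewhere. In KD replicate 3, 31.5% of records aligned to several places. Of 8 B-cell precursor markers 7 passed the filter, with a summed level of 1442 to 1968 CPM (counts scaled to 1000000 per library, TMM-normalised). DNTT, the terminal transferase of V(D)J recombination, had 11 and 28 counts in replicate 1 of KD and NC and 0 to 3 elsewhere. None of 5 T-cell or 5 erythroid markers passed. The summed T-cell level was 8.73 and 10.8 CPM in replicate 1 of KD and NC and 0.12 to 0.30 CPM elsewhere. Of 5 myeloid markers 3 passed (CSF1R, LYZ and MPO, summed level of all 5 21.4 to 29.1 CPM), as did PDGFRB and COL1A1 of 5 stromal or epithelial markers. MPO had 78 and 53 counts in replicate 1 of KD and NC and 5 to 17 in the other 4 libraries. The summed stromal or epithelial level was 85.3 to 104.8 CPM, mostly from PDGFRB, and ran from 87.3 to 104.7 CPM in KD and 85.3 to 104.8 CPM in NC.

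**Figure D1:**
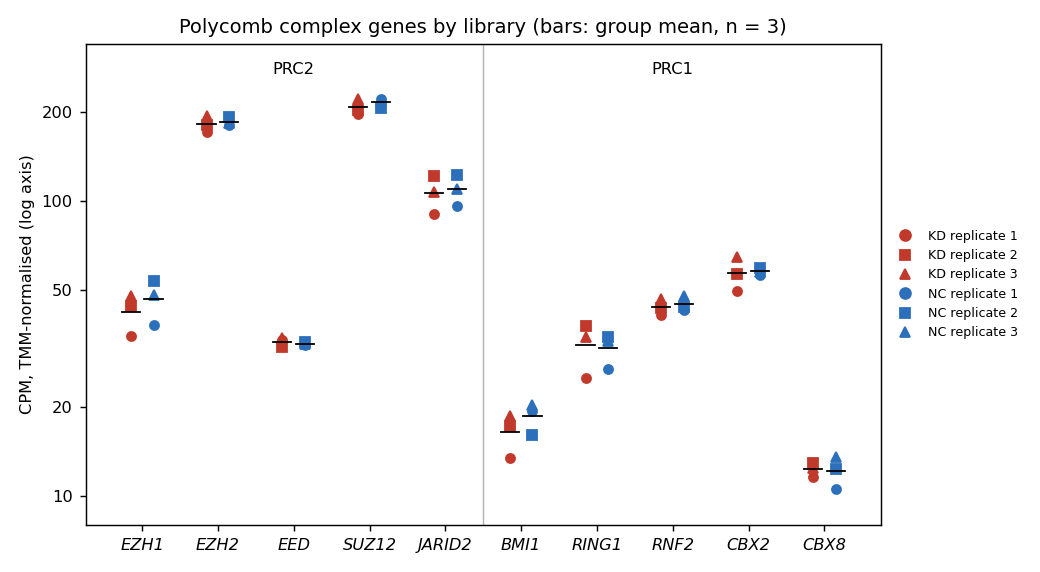
Normalised level (CPM, log axis) of the 10 Polycomb genes in each library. Red symbols are KD and blue symbols NC, circles, squares and triangles are replicates 1, 2 and 3, and black bars are group means (n = 3). The KD and NC symbols overlap for every gene. Both circles lie below the other 4 symbols for EZH1, EZH2, JARID2, RING1, RNF2, CBX2 and CBX8, by most for EZH1, JARID2 and RING1.

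None of the 10 Polycomb genes differed detectably between KD and NC. The log2 fold changes farthest from 0 were -0.18 at BMI1 and -0.14 at EZH1, and the other 8 lay between -0.06 and 0.03. edgeR's quasi-likelihood test called 0 of 10 members and 0 of the 16929 genes tested (0% of genes). No member had an unadjusted edgeR p under 0.05 (0.307% of all genes did). That share lies far below the threshold of 0.05, so this fit was conservative, and its lack of calls is weak evidence of no change. Its common biological coefficient of variation was 0.37, against 0.068 in the fit blocked on replicate number. DESeq2 also called none of them (1 gene in all, 0.00595%), and gave none an unadjusted p under 0.05 (0.303% of all genes). A fit that blocked on replicate number called 29 genes (0.171%) and no member, and no member had an unadjusted p under 0.05 in it (4.97% of all genes). The KD and NC values overlapped for all 10 members, whereas 3.43% of tested genes had groups that did not overlap.

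The intervals show how large an undetected change could be if the model of each fit holds. Both fits estimate the spread of a gene partly from the other genes. The blocked fit also takes the replicate numbers as pairs, so larger changes are not excluded. The 95% intervals of all 10 members stayed within 1.5-fold up or down, in the fit by group alone and in the fit with the replicate block. Over all tested genes the share was 50.7% and 66.6%. Of the 10, 7 had a negative log2 fold change in either fit (51.4% of all tested genes by group and 52% with the block) and 3 a positive one, with a median by group of -0.03 against -0.0036 over all tested genes. EZH1, JARID2 and RNF2 were lower in KD within all 3 replicate numbers, a pattern shown by 12.6% of tested genes. No member was higher in all 3 (13.1% of tested genes were).

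**Figure D2:**
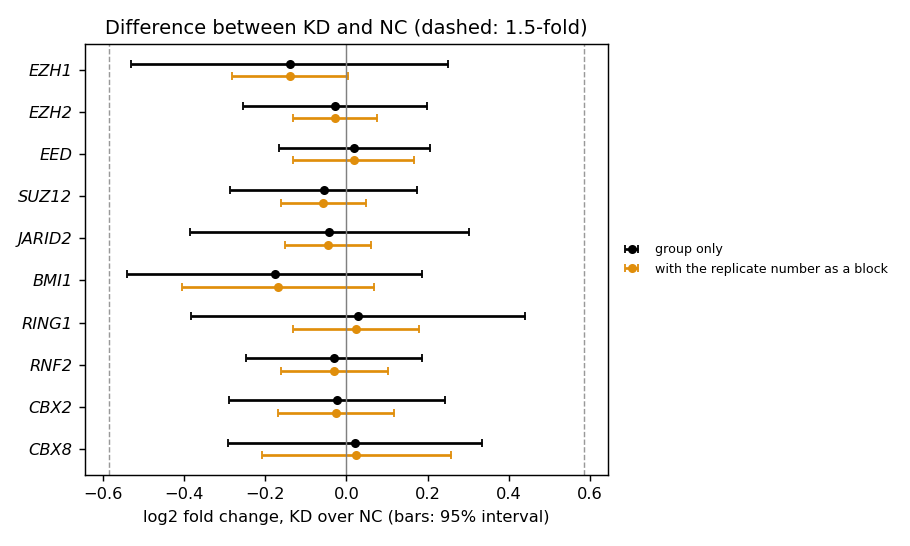
Log2 fold change of KD over NC for the 10 genes, with 95% intervals from the edgeR fit by group alone (black) and with the replicate number as a block (orange). Dashed lines mark a 1.5-fold change, and every interval lies between them and includes 0.

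EZH2, the main PRC2 methyltransferase of dividing cells (ENSG00000106462.12, chromosome 7, 148807383 to 148884321, minus strand, GRCh38), measured 171.0 CPM in the first KD library, 181 in the second and 194 in the third, against 181, 192 and 184 CPM in the NC libraries. Values of every gene below follow this order of replicates. The values of the groups interleave, with the lowest and the highest library both in KD. The log2 fold change was -0.03 (SE 0.10, edgeR quasi-likelihood adjusted p 1.00), with a 95% interval from 0.84-fold to 1.15-fold. With the block the interval narrowed to between 0.91-fold and 1.05-fold.

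EZH1, the paralogue that is known to be kept in resting and differentiated cells (ENSG00000108799.13, chromosome 17, 42700275 to 42745049, minus strand), had 34.8, 44.1 and 47.6 CPM in KD and 38.0, 53.4 and 47.9 CPM in NC. Replicate 1 was the lowest library in each group, and KD was below NC in each replicate number, with log2 differences of -0.13, -0.28 and -0.0082, so the third pair hardly differed. The means were 42.2 ± 6.59 CPM in KD and 46.4 ± 7.78 CPM in NC (SD, n = 3 each). The blocked fit gave the smallest p of the 10 members here (log2 fold change -0.14, unadjusted p 0.0559, edgeR quasi-likelihood adjusted p 0.999). Without replicate 3 the blocked log2 fold change of EZH1 was -0.20 (edgeR unadjusted p 0.0122, adjusted p 0.779) and without replicate 2 it was -0.079. In the fit by group it was -0.015 without KD replicate 1 and -0.011 without NC replicate 2, so its size rests on single libraries.

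SUZ12, the scaffold that holds PRC2 together (ENSG00000178691.11, chromosome 17, 31937018 to 32001045, plus strand), had 197, 204 and 222 CPM in KD and 222, 206 and 219 CPM in NC. KD replicate 1 was the lowest library, and the highest values of the groups were alike. The log2 fold change was -0.06 (95% interval -0.29 to 0.17). The pseudogene SUZ12P1 had 9 to 22 counts per library, against 3492 to 5184 for SUZ12.

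EED, the subunit that recognises the methyl mark (ENSG00000074266.23, chromosome 11, 86244544 to 86278813, plus strand), was the steadiest member. It had 33.7, 31.9 and 34.3 CPM in KD and 32.5, 33.3 and 32.7 CPM in NC. Its coefficient of variation over the 6 libraries was 2.59%, below the 3.82% that counting error alone gives at its mean count. For EZH1 the same quantities were 15.5% and 3.28%, and for EZH2 4.56% and 1.62%.

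JARID2, which helps bring PRC2 to its targets (ENSG00000008083.14, chromosome 6, 15246296 to 15522040, plus strand), had 90.02, 122 and 107 CPM in KD and 96.1, 122 and 110.1 CPM in NC. Libraries with the same replicate number were alike, and the replicates differed more than the groups: the log2 differences within pairs 1, 2 and 3 were -0.09, -0.0057 and -0.04. An antisense transcript, JARID2-AS1, had 2 to 11 counts per library.

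BMI1, a PCGF partner of RING1 and RNF2 in canonical PRC1 (ENSG00000168283.14, chromosome 10, 22321211 to 22331484, plus strand), had 240, 441 and 355 counts in KD and 313, 372 and 465 in NC. These are 13.5, 17.3 and 18.6 CPM in KD and 19.5, 16.2 and 20.3 CPM in NC. NC was higher in replicates 1 and 3 and KD in replicate 2, and most of the difference came from replicate 1 (log2 difference -0.52, against 0.10 and -0.13). Without replicate 1 the blocked log2 fold change of BMI1 was -0.012, and without replicate 2 it was -0.32 (edgeR unadjusted p 0.00618, adjusted p 0.523), so its size rests on replicate 1. The count of BMI1 may miss reads, since the treatment of shared exons is not known: in GENCODE 29 the read-through gene COMMD3-BMI1 shares 1000 of its 4283 exon bases, and that gene has 0 counts in all 6 libraries.

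RING1 and RNF2, the alternative ubiquitin ligases of PRC1, differed in their spread over the 6 libraries, with coefficients of variation of 15.3% and 5.48%. RING1 (ENSG00000204227.5, chromosome 6, 33208495 to 33212722, plus strand) had 25.1, 37.6 and 34.6 CPM in KD and 27.04, 34.7 and 33.7 CPM in NC. Both replicate 1 libraries lay below the other 4, and the log2 fold change was 0.03 (95% interval -0.38 to 0.44). RNF2 (ENSG00000121481.11, chromosome 1, 185045364 to 185102608, plus strand) had 41.2, 43.5 and 46.5 CPM in KD and 42.7, 43.6 and 47.6 CPM in NC. Its values spanned a narrow range, with replicate 3 highest in each group, and its log2 fold change was -0.03 (95% interval -0.25 to 0.19).

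CBX2 and CBX8, chromodomain readers of the PRC2 mark, are neighbours on chromosome 17 with 4148 bases between them in GENCODE 29. CBX2 (ENSG00000173894.11, 79778132 to 79787983, plus strand) had 49.7, 56.4 and 64.4 CPM in KD and 56.3, 59.4 and 57.4 CPM in NC. KD spread more widely than NC, with SDs of 7.35 and 1.56 CPM (n = 3 each). CBX8 (ENSG00000141570.11, 79792132 to 79801683, minus strand) was the lowest member, at 11.7, 13.0 and 12.4 CPM in KD and 10.6, 12.4 and 13.6 CPM in NC. Its log2 fold change was 0.02 (95% interval -0.29 to 0.33).

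Both replicate 1 libraries were below the other 4 for 7 of the 10 (EZH1, EZH2, JARID2, RING1, RNF2, CBX2 and CBX8) and above them for none. Of all tested genes 29.6% were below and 31.04% above in the same way. The mean log2 difference of replicate 1 from the other libraries was -0.43 for RING1, -0.40 for EZH1 and -0.31 for JARID2, and 0.0029 for EED. The part of the reads outside genes in this difference was not tested.

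To compare genes with each other, levels were divided by the length of the union of annotated exons (CPM per kb). EZH2 (40.7 ± 1.85, SD over 6 libraries) and SUZ12 (32.3 ± 1.62) led the members, and EZH2 exceeded 93.9% of the 16259 tested genes with a length. JARID2 (17.9 ± 2.17) and RING1 (17.7 ± 2.71) came next and could not be ordered, since JARID2 was above RING1 in 3 of 6 libraries. RNF2 (10.8 ± 0.59) and CBX2 (10.1 ± 0.84) followed, RNF2 above CBX2 in 6 of 6 libraries with overlapping ranges. EZH1 (6.34 ± 0.98), EED (4.71 ± 0.12), BMI1 (4.10 ± 0.58) and CBX8 (2.94 ± 0.25) were lowest, and CBX8 exceeded 44.6% of genes.

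Some of this order rests on the length used. With the longest transcript in place of the exon union, the value of EED was 11.95 in place of 4.71 CPM per kb, above EZH1 (9.59) in 6 of 6 libraries, because its union of 7016 bases is far longer than its longest transcript of 2767. CBX2 then stood above RNF2 in 4 of 6 libraries (12.3 each). With all counts of BMI1 divided by only the exon bases that no other gene shares, its level was 5.35 CPM per kb. Reads on those bases were not counted separately, so this value is an upper limit.

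**Figure D3:**
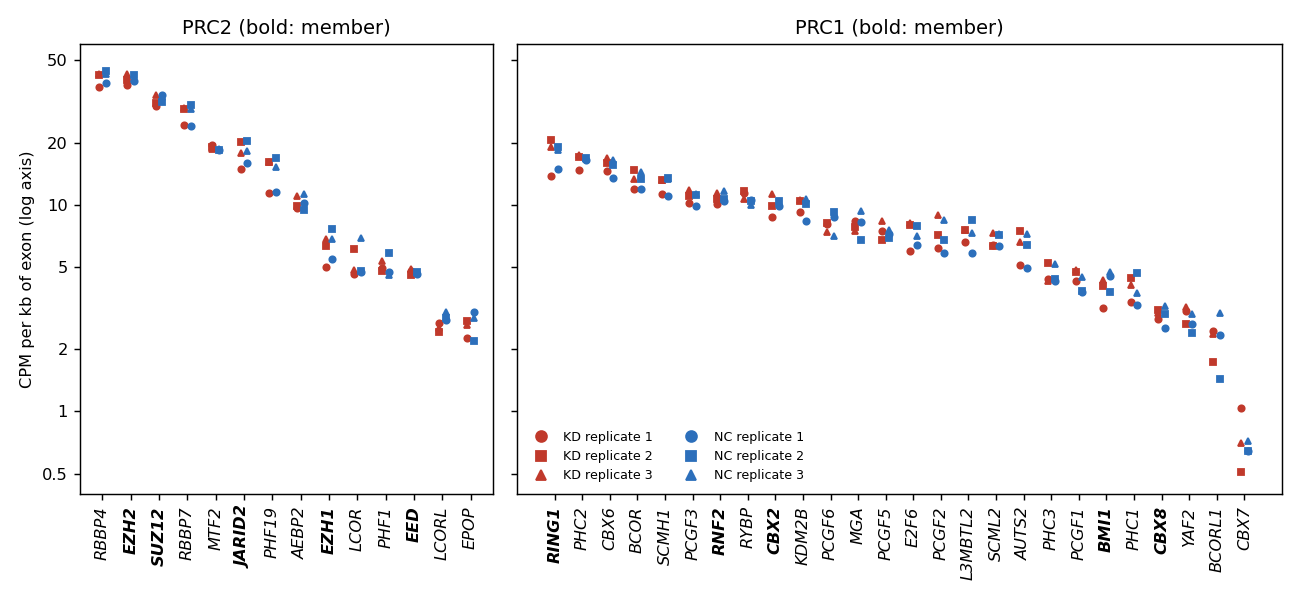
CPM per kb of exon (log axis) of tested PRC2 and PRC1 genes by library, with 1 gene not drawn, sorted by mean, with the members in bold. Red is KD and blue NC, and circles, squares and triangles are replicates 1, 2 and 3. EZH2 and SUZ12 lie near the top of PRC2 with RBBP4, RING1 is the highest PRC1 gene drawn, and CBX7 is the lowest.

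The ratio within a library shows which paralogue prevails. EZH2 exceeded EZH1 by 4.18-fold in CPM and 6.46-fold per kb (5.31-fold with the longest transcripts). The log2 ratio of EZH1 over EZH2 was -2.29, -2.04 and -2.02 in the KD libraries and -2.24, -1.85 and -1.94 in the NC libraries. KD was lower than NC in each replicate number, with a mean difference of -0.11, within the spread between replicates (SDs 0.15 and 0.21, exact two-sided permutation p 0.50, adjusted p 0.80 over 3 ratios). By pairs the differences were -0.048, -0.19 and -0.084, and flipping their signs gave an exact two-sided permutation p of 0.25, the smallest that 3 pairs allow. For the ratios below this paired p was 0.50 for RING1 over RNF2 and 0.75 for CBX2 over CBX8.

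RNF2 exceeded RING1 by 1.39-fold in CPM, but per kb RING1 exceeded RNF2 by 1.61-fold (1.48-fold with the longest transcripts), because the exons of RING1 span 1818 bases and those of RNF2 4073. The log2 ratio of RING1 over RNF2 in CPM was -0.71, -0.21 and -0.43 in KD and -0.66, -0.33 and -0.50 in NC. Replicate 1 was lowest in each group, and the mean difference of KD from NC was 0.05 (exact two-sided permutation p 0.80, adjusted p 0.80).

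CBX2 exceeded CBX8 by 4.65-fold in CPM and 3.40-fold per kb. The log2 ratio in CPM was 2.08, 2.11 and 2.36 in KD and 2.40, 2.26 and 2.08 in NC. KD was lower in replicates 1 and 2 and higher in replicate 3, and the mean difference was -0.06 (exact two-sided permutation p 0.70, adjusted p 0.80). With 3 libraries against 3 the smallest p of this test is 0.10.

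**Figure D4:**
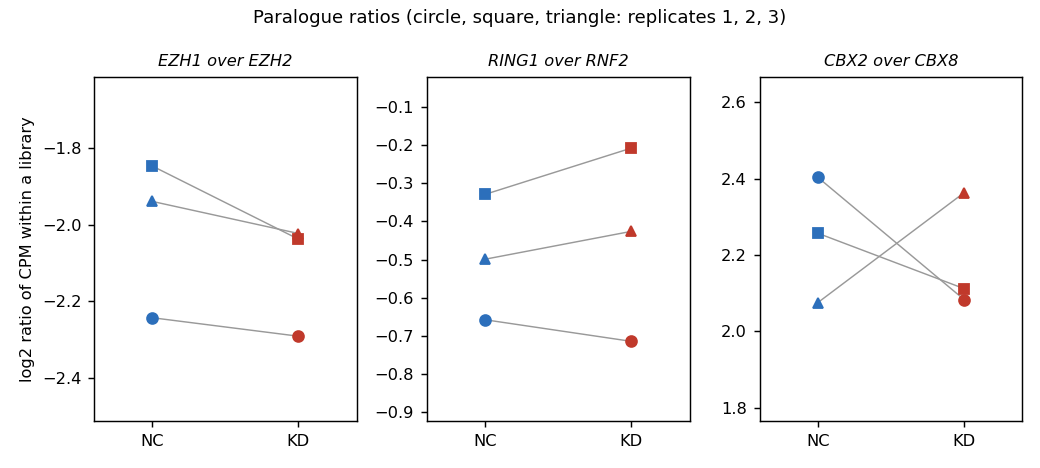
Log2 ratio of CPM within each library for EZH1 over EZH2, RING1 over RNF2 and CBX2 over CBX8, in NC (blue) and KD (red). Circles, squares and triangles are replicates 1, 2 and 3, grey lines join the same replicate number, and each panel spans the same height of the log2 scale. The lines of EZH1 over EZH2 all slope down from NC to KD, and those of CBX2 over CBX8 cross.

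The other parts of both complexes were also not called. Of 9 tested PRC2 partners edgeR called 0. Of these 8 had a negative log2 fold change, against 8705 of the 16929 genes tested, with a median of -0.02 against -0.0036 over all tested genes. RBBP4, a histone-binding subunit, was the highest per kb (41.5 ± 2.83 CPM per kb, SD over 6 libraries), and EPOP, which links PRC2 to Elongin, was the lowest that passed the filter (2.62 ± 0.33). EZHIP, an inhibitor of PRC2, had 0 to 8 counts per library and was not tested. LCORL, a PRC2 accessory protein, had 39.7, 36.0 and 37.6 CPM in KD and 41.2, 42.0 and 44.9 CPM in NC. These groups did not overlap, and the log2 fold change of -0.18 was not called (unadjusted p 0.0768 in the edgeR fit by group and 0.0164 with the block, adjusted p 0.864). MTF2, which recruits PRC2 to CG-rich DNA, stood at 0.04, with 110.4 to 114.8 CPM in KD and 108.4 to 109.9 CPM in NC, again without overlap. Groups that did not overlap were seen in 3.43% of all tested genes, and a blocked edgeR unadjusted p under 0.05 in 4.97%.

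Of 22 tested PRC1 partners edgeR called 0, and 17 had a positive log2 fold change (median 0.03), against 8224 of the 16929 genes tested. RYBP, which replaces CBX proteins in variant PRC1, had 82.3, 84.4 and 77.4 CPM in KD and 76.2, 74.9 and 72.2 CPM in NC. All KD libraries were above all NC libraries, and its log2 fold change was 0.13, not called (edgeR unadjusted p 0.178 by group and 0.0276 with the block, adjusted p 0.924). Of the 45 tested genes outside the members, 3 had groups that did not overlap (3.43% of all tested genes). A blocked edgeR unadjusted p under 0.05 was found for 2 of the 45 (4.97% of all tested genes), near the share over all genes. PCGF1, the PCGF protein of the BCOR complex, stood at 0.19 with 12.1 ± 0.76 CPM in KD and 10.6 ± 1.02 CPM in NC (SD, n = 3 each). CBX7, a further chromodomain protein, was the lowest per kb of these partners (0.71 ± 0.18 CPM per kb). Among the 6 PCGF genes BMI1 had the lowest level per kb of exon union (4.10), next to PCGF1 (4.32), and PCGF3 had the highest (10.9). With all its counts divided by only its unshared exon bases, BMI1 (5.35) would stand above PCGF1. That value holds only if the shared bases gave no counts, which is not known.

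The enzymes that remove the marks were likewise not called. Of 7 tested genes of the H2A deubiquitinase 0 were called (median log2 fold change 0.0065). BAP1, its catalytic subunit, was the highest at 17.5 ± 2.50 CPM per kb and stood at 0.04, and MBD5 was the lowest that passed, at 0.68 ± 0.09 CPM per kb with a log2 fold change of -0.13. ASXL2, which activates BAP1, stood at -0.07. ASXL3 did not pass the filter, with 3 to 7 counts in replicates 2 and 3 and 64 and 66 in replicate 1. The H3 demethylases KDM6A and KDM6B had log2 fold changes of -0.07 and 0.10, neither called, at 12.3 ± 0.95 and 7.04 ± 1.35 CPM per kb.

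Genes known as Polycomb targets in many tissues were mostly silent in SEM. Of 24 such genes 5 passed the filter and edgeR called 0 of them. CDKN2A, a cell cycle inhibitor, was well expressed, at 306 ± 40.9 CPM in KD and 277 ± 18.2 CPM in NC (SD, n = 3 each), with a log2 fold change of 0.14 (95% interval -0.16 to 0.45). PAX6 and WT1, developmental transcription factors, were also expressed, at 45.2 to 62.2 and 16.8 to 23.4 CPM. WT1 stood at 0.10, and CDKN2B and GATA6 had 14 to 44 and 25 to 71 counts, highest in the replicate 1 libraries.

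The 18 developmental genes that did not pass, such as GATA4, OLIG2, SOX1 and NKX2-1, give a rough estimate of the counts that fall on silent genes. They were taken because they failed the filter in these same libraries, which favours low counts. CDKN1C, with 3 to 24 counts, also did not pass and was left out of them. Their median was 7.95 and 6.93 counts per kb of exon in replicate 1 of KD and NC and 0 in the other 4 libraries, where 10 of the 18 had no count. NKX2-1 had the lowest mean level per kb of this list (10, 0 and 0 counts in KD and 9, 0 and 1 in NC). At that median, such counts would make up 16.0% and 17.0% of the CBX8 counts of KD and NC replicate 1, 14.2% and 9.48% of those of BMI1, 8.98% and 7.91% of those of EZH1, and 1.18% and 1.08% of those of EZH2. With these counts subtracted, an alternative chosen after seeing the data, the difference of KD from NC in the log2 ratio of EZH1 over EZH2 was -0.11, that of RING1 over RNF2 0.05 and that of CBX2 over CBX8 -0.07.

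**Figure D5:**
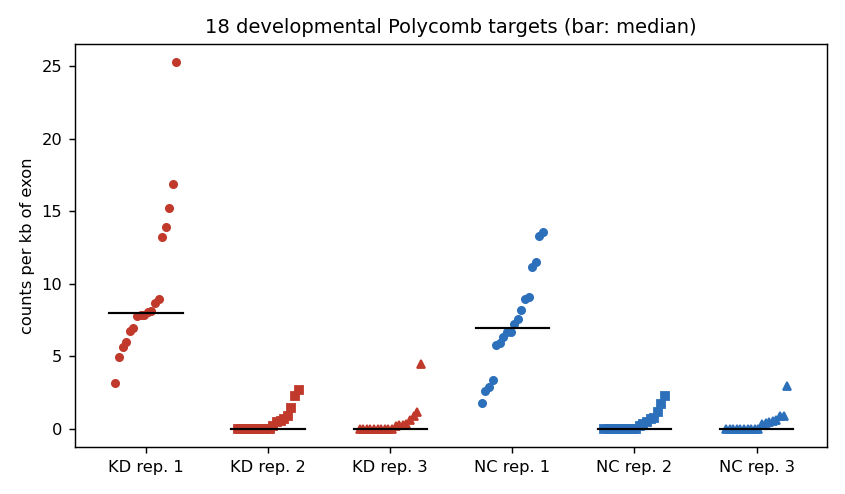
Counts per kb of exon for 18 developmental Polycomb target genes in each library, sorted within the library, with the median as a bar. The replicate 1 libraries of KD (red) and NC (blue) have medians of 7.95 and 6.93, and the other 4 libraries have medians of 0.

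Genes with a pattern most like the methyltransferases were found by Pearson correlation of log2 CPM over the 6 libraries, among 9292 other genes with a mean of at least 10 CPM. LARS1, the cytoplasmic leucyl-tRNA synthetase (r 0.999), MIR4458HG (0.996) and the iron-sulfur assembly factor MMS19 (0.996) were closest to EZH1. CLDN15, a claudin (0.994), SLC17A9, a nucleotide transporter (0.993), and LPCAT4, a lysophospholipid acyltransferase (0.987), were closest to EZH2. With 6 points that share the offset of replicate 1, 262 genes exceeded 0.95 for EZH1 and 39 for EZH2. Among the members, EZH2 correlated at 0.96 with CBX2, JARID2 at 0.94 with RING1 and SUZ12 at 0.90 with BMI1 over the same libraries, given as a description.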

How the data were processed

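RNA of 6 SEM libraries (3 KD, 3 NC, groups and replicate numbers from the sample titles) was measured as whole-number read counts per gene, deposited as htseq-count output with no normalisation. The submitters' processing notes name hg38, STAR 2.7.10a, DESeq2, HTSeq 0.11.1 and FastQC 0.11.8. The annotation release and the strand setting were not given in the sources used here. Without the strand setting, overlapping antisense genes cannot be told apart. The 5 summary lines of each file, 39.8% to 66.5% of records, stayed out of library sizes and tests. Gene counts totalled 14750579 to 26694160 per library. For most members the spread between libraries exceeded the counting error.

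The main test was edgeR 4.0.16 in R 4.3.3 (filterByExpr, TMM, robust quasi-likelihood F test by group, Benjamini-Hochberg adjusted p under 0.05 over all 16929 genes). Both fits were run on simulated counts with known changes of different sizes. Recovery was required only of the larger changes, in the fit with the replicate block and at the smaller of the spreads simulated. DESeq2 1.42.0, other size factors, no filter, left-out libraries and the replicate block were alternatives. Log2 CPM used a prior count of 2. Paralogue ratios were compared by exact permutation. Lengths and positions come from GENCODE 29 (GRCh38), which may differ from the counting annotation, and symbols from a name table.

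KD and NC libraries of the same number deviated together from their group means (r 0.89, 0.62 and 0.61 for numbers 1, 2 and 3, limit 0.1). The numbers were therefore treated as pairs in the blocked fit and in the differences by pair, while the main test used no pairing. The pairing rests on these data, as the labels state none. KD replicate 2 with NC replicate 3 reached 0.59 and KD replicate 3 with NC replicate 2 reached 0.55. The check therefore sets number 1 apart but cannot tell how numbers 2 and 3 pair. No library was a repeat of another of its group (chi-square of 20.2 to 82.0 per degree of freedom). Members and lists were chosen with earlier results of these data known. All 10 members were named; from each other list the called genes or the 2 with the smallest p, and the highest and lowest per kb; and the 3 genes most like EZH1 and EZH2. PAX6, CDKN2B, CDKN1C, GATA6, GATA4, OLIG2, SOX1, EZHIP, ASXL3, PCGF3 and LCOR fall outside that rule and were picked with their values known. 1 gene that the rule would name is not reported here.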

Additional observations from a re-analysis of the deposited data

How the results depend on the processing

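No Polycomb member was called under any of the 14 alternatives, and of 140 log2 fold changes 25 changed sign, all with a library or pair left out and none called. EZH1 and BMI1 stayed negative in all 14. Leaving out libraries without the block, the log2 fold change ran from -0.26 to -0.011 for EZH1, -0.29 to -0.022 for BMI1, -0.10 to 0.022 for EZH2, -0.032 to 0.045 for EED, -0.13 to 0.0023 for SUZ12, -0.19 to 0.069 for JARID2, -0.13 to 0.19 for RING1, -0.11 to 0.050 for RNF2, -0.15 to 0.071 for CBX2 and -0.067 to 0.13 for CBX8. The same range was -0.22 to -0.021 for the KD minus NC difference in the EZH1 over EZH2 ratio, -0.075 to 0.18 for RING1 over RNF2 and -0.15 to 0.020 for CBX2 over CBX8. Such left-out libraries also moved the median of all genes, to 0.11 without KD replicate 2 and -0.11 without NC replicate 2. In the paired fit (replicate block) EED was -0.0034 without replicate 3, SUZ12 0.0017 and CBX2 0.045 without replicate 1, RING1 -0.045 without replicate 2, and CBX8 -0.024 without replicate 1 and -0.018 without replicate 2. Over all genes DESeq2 called 0.00595% and the replicate block 0.171% (29 genes), or 0.0306%, 0.397% and 0.244% without replicates 1, 2 and 3, where 16344, 29982 and 29966 genes were tested; the cause was not tested. Without replicate 2 the block also called 1 other Polycomb gene, LCOR, a PRC2 accessory gene (-0.30, edgeR adjusted p 0.00478), and with all pairs it called none. The log2 differences of LCOR within pairs 1, 2 and 3 were -0.039, 0.35 and -0.51. That call thus leaves out the pair of opposite sign, and with all pairs the blocked log2 fold change was -0.068 (SE 0.24). Among the members and the other Polycomb genes the block changed no other call. Low counts limit CBX8 and BMI1 most, with counting errors of 6.25% and 5.24% at their mean counts.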
